A study of Homo sapiens with 6 samples.

Results

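The genes of tight junctions, desmosomes and gap junctions were followed in A549 cells, a human lung adenocarcinoma line, after silencing of FSCN1, which encodes the actin-bundling protein fascin. The members were taken by symbol from the protein-coding genes of the deposited count table and comprised the claudins (CLDN), the desmosomal cadherins and plaque genes (DSG, DSC, DSP, JUP, PKP), the connexins of the GJA, GJB and GJC classes, and further tight junction genes such as TJP1, TJP3, OCLN, F11R, JAM2, JAM3, CGN, MARVELD2 and MARVELD3. This gave 54 of the 30230 genes in the table, of which 18 were claudins, 10 other tight junction genes, 13 desmosome genes and 13 connexins. RNA sequencing covered 3 control libraries (NC) and 3 libraries from cells transfected with an siRNA against FSCN1 (siFSCN1). All cells were the same line, with no further genotype or treatment in the labels. The study's methods describe the control as a scrambled siRNA, whereas the control treatment label names a control plasmid. Of 3 siRNAs designed against FSCN1, a single one was used for these libraries, so that loss of FSCN1 and other effects of that sequence cannot be told apart.

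Tight junctions seal the space between epithelial cells. Claudins form their strands and decide, by a barrier or pore character, which ions pass, while scaffold proteins tie the strands to the actin cytoskeleton. Desmosomes are spot-like adhesions in which desmoglein and desmocollin cadherins are coupled through plakoglobin, plakophilins and desmoplakin to intermediate filaments. Gap junctions are clusters of connexin channels through which ions and small metabolites pass directly between neighbouring cells.

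Libraries held 27967301 to 36560919 counts. FSCN1 itself stood at 45.0, 47.2 and 46.0 FPKM (fragments normalised for gene length and sequencing depth) in NC and at 4.46, 2.82 and 3.19 FPKM in siFSCN1, so the labels matched the targeted gene. The 6 epithelial markers summed to 3117 to 3498 FPKM in NC and 1759 to 2115 FPKM in siFSCN1 and all of them reached 1 FPKM. Most of this sum came from KRT18, KRT8 and KRT7, with NC means of 1815, 973 and 501 FPKM, and these keratins fell. CDH1, of the same list, rose from a mean of 9.23 FPKM to 26.4 FPKM, so the lower sum reflects keratins and not every epithelial marker. Endothelial markers summed to at most 0.04 FPKM and fibroblast markers to at most 0.66 FPKM. Of 7 alveolar type II markers only ABCA3 reached 1 FPKM, and the surfactant genes that define that cell type did not. The leukocyte list summed to 2.79 to 2.99 FPKM in NC and 3.86 to 4.83 FPKM in siFSCN1, and CD14 was its only gene at 1 FPKM or more. NC replicate 1 stood apart in keratinocyte genes, with 168 KRT5 counts against 42 and 58 in the other NC libraries, and the tests of GJB2, GJB5 and DSG1, connexin and desmosome genes also known from keratinocytes, are therefore also given without it. In bulk libraries such as these, fewer cells of a type and less RNA per cell cannot be told apart.

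The promoter windows of 4 genes on which the results turn are shown first, namely CLDN2, GJA1 and JUP, the claudin, connexin and desmosome gene with the largest rises at 1 FPKM or more, and GJB2, a connexin that fell. Each window is the 250 bases before an annotated start, read on the gene's strand from RefSeq on GRCh38.p14. Capitals mark a match to the AP-1 motif TGANTCA or the E-box CAGGTG on either strand.
CLDN2, upstream start, chrX:106899914-106900163, plus strand: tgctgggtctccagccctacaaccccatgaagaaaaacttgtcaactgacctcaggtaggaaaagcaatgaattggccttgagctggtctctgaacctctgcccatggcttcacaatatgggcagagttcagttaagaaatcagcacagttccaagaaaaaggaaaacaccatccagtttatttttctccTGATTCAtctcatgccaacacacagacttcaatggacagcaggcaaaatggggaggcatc
CLDN2, downstream start, chrX:106918110-106918359, plus strand: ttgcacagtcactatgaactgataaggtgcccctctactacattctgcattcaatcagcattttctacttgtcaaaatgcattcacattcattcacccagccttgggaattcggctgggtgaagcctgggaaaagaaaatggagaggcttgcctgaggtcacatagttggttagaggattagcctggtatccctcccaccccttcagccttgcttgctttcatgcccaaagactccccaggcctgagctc
GJA1, chr6:121435396-121435645, plus strand: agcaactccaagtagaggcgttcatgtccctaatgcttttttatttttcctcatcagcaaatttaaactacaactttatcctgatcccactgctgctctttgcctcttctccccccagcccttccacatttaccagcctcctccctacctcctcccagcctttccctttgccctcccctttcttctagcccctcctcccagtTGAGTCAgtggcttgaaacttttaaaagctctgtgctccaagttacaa
JUP, chr17:41785977-41786226, minus strand: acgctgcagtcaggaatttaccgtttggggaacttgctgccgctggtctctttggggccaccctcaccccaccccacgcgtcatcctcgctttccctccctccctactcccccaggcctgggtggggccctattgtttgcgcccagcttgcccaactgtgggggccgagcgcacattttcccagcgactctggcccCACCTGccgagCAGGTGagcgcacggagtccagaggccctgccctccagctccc
GJB2, chr13:20192939-20193188, minus strand: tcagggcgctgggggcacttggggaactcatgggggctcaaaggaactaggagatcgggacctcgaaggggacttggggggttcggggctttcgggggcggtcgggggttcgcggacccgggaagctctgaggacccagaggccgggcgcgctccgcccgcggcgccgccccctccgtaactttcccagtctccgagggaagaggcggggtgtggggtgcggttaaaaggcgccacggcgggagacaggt

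The CLDN2 windows held 0 and 1 CpG dinucleotides and the GJA1 window held 1, against a median of 11 over all 35116 windows of the table. The GJB2 window held 25 and the printed JUP window 13. CpG numbers varied among members of either direction. Among those that rose the number was 28 in CLDN1, 33 in DSP, 22 and 23 in PKP4 and 2 in GJB1, and among those that fell 4 in CLDN4 and 33 in GJA3. An AP-1 match lay in the upstream CLDN2 window and in the GJA1 window, and the printed JUP window held 2 E-boxes. A further JUP window, not printed (chr17:41786712-41786961), held 17 CpG dinucleotides and no match to either motif. A window was found for 23 of the 31 tested members, in 33 windows. AP-1 matches occurred in 4 of these windows (CLDN2, GJA1, CLDN15 and CLDN4, the last of which fell), against 6.57% of all windows. E-boxes occurred in 10 member windows against 17.5% of all windows. The HNF1 motif GTTAAT occurred in 1, that of GJB1, against 6.23%, and the TATA box TATAAA in 0, against 10.7%. Each motif was searched on both strands and independently of the others, and a match describes letters in the window, not a bound site.

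Of the 54 members, 31 passed the filter on low counts and were tested. At an adjusted p under 0.05, 15 members were higher and 10 lower in siFSCN1 and 6 did not pass. Over all 17076 tested genes, 35.1% passed as higher and 33.2% as lower, so passing was common in this contrast. At a change of at least 2-fold as well, 9 members were called (4 higher, 5 lower), against 16.5% of all tested genes, of which 11.7% were higher and 4.85% lower. The 4 higher were CLDN2, GJA1, JUP and GJB1, and the 5 lower included F11R, CLDN4, GJB2 and GJA3. Groups did not overlap in scaled counts for 24 of the 31 members, against 71.3% of all tested genes. The median log2 fold change of the tested members was 0.25, beside 0.03 over all tested genes. Among the 19 members at 1 FPKM or more in the higher group, 3 were called higher and 1 lower, against 5.86% and 4.85% of genes at that level. When libraries were scaled by their totals instead of TMM, the median of all genes moved to 0.22, and 18 members passed as higher and 7 as lower. Over all genes, 46.7% passed as higher and 22.4% as lower with this scaling. The called members then split into 5 higher and 4 lower, and the share of all genes called with this scaling is not given here. FPKM follow the authors' own depth scaling, so ratios of FPKM ran above the fitted fold changes, which are given on the TMM scale.

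**Figure D1:**
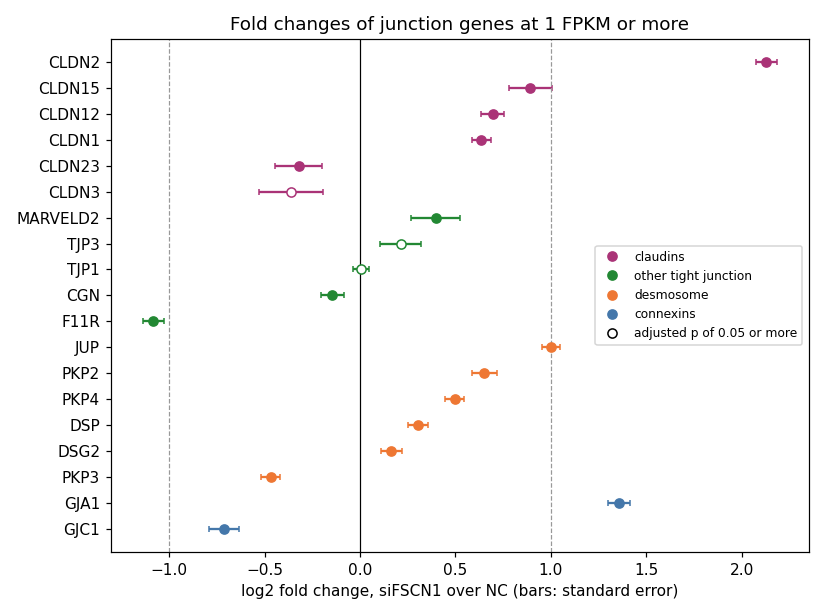
Fitted log2 fold change (siFSCN1 over NC, horizontal axis) of each of the 19 junction genes with a mean of at least 1 FPKM in either group, coloured by group, with bars of 1 standard error. Open points had an adjusted p of 0.05 or more and dashed lines mark a 2-fold change. CLDN2 lay farthest to the right at 2.13 and F11R farthest to the left at -1.08.

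The claudins were led by CLDN2, which forms cation-selective pores and marks leaky epithelia. CLDN2 (ENSG00000165376.12, chrX:106900164-106930861, GRCh38) stood at 21.7, 18.2 and 21.4 FPKM in NC and at 102.7, 101.3 and 97.3 FPKM in siFSCN1. Every siFSCN1 library was above every NC library, and the spread within each group was small beside the gap. The fitted log2 fold change was 2.13 (SE 0.055, edgeR adjusted p = 1.34e-15), a 4.38-fold rise. Its exons share 341 bases with RIPPLY1 on the opposite strand, a gene with 13 counts in all libraries together.

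CLDN1, a barrier-forming claudin, rose less. It stood at 11.3, 12.5 and 11.6 FPKM in NC and 20.2, 20.5 and 20.8 FPKM in siFSCN1, a log2 fold change of 0.63 (SE 0.050, adjusted p = 2.57e-09). The groups were clearly separate, as they were for CLDN12 and CLDN15. CLDN12, an atypical claudin, went from 2.40, 2.90 and 2.84 FPKM to 4.84, 4.83 and 5.09 FPKM, a log2 fold change of 0.69 (adjusted p = 1.34e-08), and it shares exonic bases on its own strand with GTPBP10 (5.2%) and other genes. CLDN15, which like CLDN2 forms cation pores, went from 1.45, 1.60 and 1.68 FPKM to 3.41, 2.94 and 3.50 FPKM. Its log2 fold change was 0.89 (SE 0.11, adjusted p = 1.44e-06), just short of 2-fold, and reached 1.08 when libraries were scaled by their totals.

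No other tested claudin rose. CLDN4, a barrier-forming claudin expressed at a low level here, gave 82, 109 and 131 counts in NC and 51, 51 and 54 counts in siFSCN1, and its log2 fold change was -1.22 (SE 0.18, adjusted p = 7.85e-06). The 3 siFSCN1 libraries lay together below all NC libraries. CLDN3, its neighbour within 63.7 kb on chromosome 7, gave 1.71, 1.56 and 2.15 FPKM against 1.73, 1.51 and 1.52 FPKM, with a log2 fold change of -0.36 (SE 0.17) that did not pass (adjusted p = 0.0627), although it did without NC replicate 2 (-0.46, adjusted p = 0.0361). CLDN23 fell by 0.32 (adjusted p = 0.0279), but its groups overlapped, at 3.20 to 4.23 FPKM in NC and 3.03 to 3.77 FPKM in siFSCN1. Without NC replicate 2 the CLDN23 value was -0.22 (adjusted p = 0.123), without siFSCN1 replicate 2 or 3 it was -0.30 and -0.27 (adjusted p = 0.0636 for both), and with library totals it was -0.13 (adjusted p = 0.34). CLDN7, at 13 to 34 counts in every library, gave 0.15 (adjusted p = 0.709).

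The summed FPKM of the claudins was 43.1 ± 1.14 (SD, n = 3) in NC and 135.1 ± 2.55 in siFSCN1. CLDN2 supplied 47.4% ± 3.96 of this sum in NC and 74.3% ± 0.77 in siFSCN1. The share of CLDN1 went from 27.4% ± 2.00 to 15.2% ± 0.53 although its own level rose, and that of CLDN23 from 8.57% to 2.45%.

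**Figure D2:**
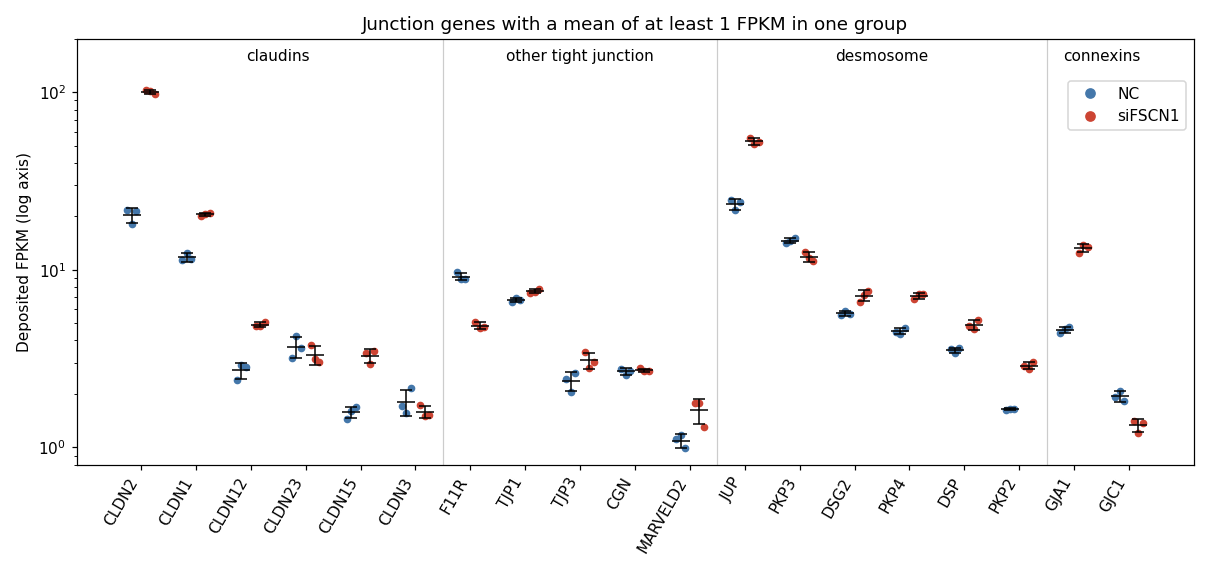
Deposited FPKM (log axis) of the 19 junction genes with a mean of at least 1 FPKM in either group. Points are libraries (blue NC, red siFSCN1) and bars give the mean and SD of 3 libraries. CLDN2, JUP and GJA1 show gaps between groups far wider than their bars, with F11R separated in the opposite direction.

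Among the other tight junction genes, F11R was the only 1 called. It encodes junctional adhesion molecule A, an immunoglobulin-type membrane protein that takes part in polarity and leukocyte passage. F11R (ENSG00000158769.18, chr1:160995211-161021343) stood at 9.70, 8.92 and 8.89 FPKM in NC and at 5.10, 4.69 and 4.78 FPKM in siFSCN1. The groups were far apart and the log2 fold change was -1.08 (SE 0.056, adjusted p = 6.83e-12). The fall was -0.90 with library totals and -0.97 with upper quartile scaling, both short of 2-fold. A read-through locus with 1 count in all libraries shares 36.6% of its exonic bases.

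The scaffold genes moved little. TJP1, which encodes ZO-1, the scaffold that binds claudin tails to actin, gave 6.57, 6.90 and 6.74 FPKM in NC and 7.43, 7.53 and 7.80 FPKM in siFSCN1. After TMM its log2 fold change was 0.006 (adjusted p = 0.91), with a 95% interval of -0.08 to 0.09, whereas library totals gave 0.19 (adjusted p = 0.00094). TJP3, encoding ZO-3, gave 2.42, 2.05 and 2.63 FPKM against 3.44, 2.79 and 3.03 FPKM and a log2 fold change of 0.21 (adjusted p = 0.087), which passed at 0.40 with library totals (adjusted p = 0.00269) and, narrowly, at 0.28 without NC replicate 3 (adjusted p = 0.0499). CGN, encoding the junctional plaque protein cingulin, passed as lower at -0.14 (adjusted p = 0.038) on 2.77, 2.56 and 2.71 FPKM against 2.79, 2.69 and 2.69 FPKM, and its sign flipped to 0.04 with library totals. CGN no longer passed without NC replicate 1 (-0.12, adjusted p = 0.116), nor without NC replicate 3, siFSCN1 replicate 2 or siFSCN1 replicate 3 (adjusted p = 0.0689 to 0.0993).

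The 3 members with a MARVEL domain, MARVELD2, OCLN and MARVELD3, passed as higher, whereas MARVELD1, which is outside the symbol rule, passed as lower after TMM (-0.15, adjusted p = 0.0367) at mean levels of 12.4 FPKM in NC and 12.6 FPKM in siFSCN1. MARVELD2, which encodes tricellulin, a protein of tricellular contacts, went from 1.11, 1.18 and 0.99 FPKM to 1.77, 1.77 and 1.31 FPKM, a log2 fold change of 0.40 (SE 0.13, adjusted p = 0.0112). It no longer passed without NC replicate 3 (0.32, adjusted p = 0.0556) or without siFSCN1 replicate 2 (0.31, adjusted p = 0.0544). The remaining tested members of this group lay under 1 FPKM. OCLN, encoding occludin and next to MARVELD2 on chromosome 5, gave 0.34 (adjusted p = 0.00758) and MARVELD3 gave 0.68 (adjusted p = 0.0324), while JAM3 gave -0.35 (adjusted p = 0.0295). OCLN has a partial duplicate, OCLNP1, and JAM3 and MARVELD3 share 35.6% and 16.8% of their exonic bases with genes on the opposite strand, so that these values are uncertain. MARVELD3 did not pass without NC replicate 1 (0.47, adjusted p = 0.136), siFSCN1 replicate 1 or siFSCN1 replicate 3, and JAM3 did not pass without NC replicate 2 (-0.28, adjusted p = 0.099) or siFSCN1 replicate 1. Nor did JAM3 pass with library totals (-0.16, adjusted p = 0.314) or upper quartile scaling (-0.23, adjusted p = 0.14). JAM2 held 2 counts in all.

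The summed FPKM of this group was 23.7 ± 0.41 (SD, n = 3) in NC and 21.7 ± 0.50 in siFSCN1. The share of F11R went from 38.8% ± 1.32 to 22.4% ± 0.47 and that of TJP1 from 28.5% ± 1.18 to 35.0% ± 1.44.

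In the desmosome group, 6 of 8 tested genes passed as higher and 1 as lower, against 35.1% and 33.2% of all tested genes. At 2-fold as well there was 1 call (12.5%), against 16.5% of all tested genes. That call was JUP, which encodes plakoglobin, the armadillo protein shared by desmosomes and adherens junctions. JUP (ENSG00000173801.17, chr17:41754604-41786931) stood at 24.8, 21.6 and 24.1 FPKM in NC and at 55.4, 51.0 and 52.2 FPKM in siFSCN1. No library of either group came near the other, and the log2 fold change was 1.00 (SE 0.047, adjusted p = 2.27e-12). The rise sat on the 2-fold line. It was 0.98 with DESeq2, and 0.93, 0.96 and 0.998 without NC replicate 2, siFSCN1 replicate 1 and siFSCN1 replicate 3, all just under 2-fold at adjusted p-values of 1.13e-10 or less.

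The plakophilins, which cluster cadherins in the plaque, went in different directions. PKP2 went from 1.62, 1.65 and 1.65 FPKM to 2.88, 2.76 and 3.02 FPKM (log2 fold change 0.65, adjusted p = 6.85e-08). PKP4 went from 4.48, 4.36 and 4.71 FPKM to 6.82, 7.33 and 7.28 FPKM (0.50, adjusted p = 1.06e-07). PKP3, the most abundant plakophilin, fell by 0.47 on the log2 scale (adjusted p = 1.82e-07), from 14.2, 14.5 and 15.1 FPKM to 12.6, 11.6 and 11.3 FPKM. None of the 3 overlapped between groups. PKP1, a plakophilin of stratified epithelia, held 17, 1 and 3 counts in NC and 2, 4 and 5 in siFSCN1 and was not tested.

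DSP, which encodes desmoplakin, the link to intermediate filaments, went from 3.57, 3.41 and 3.63 FPKM to 4.83, 4.63 and 5.23 FPKM, a log2 fold change of 0.30 (SE 0.052, adjusted p = 5.24e-05). The cadherin DSG2, the desmoglein of simple epithelia, gave 5.55, 5.90 and 5.61 FPKM in NC and 6.61, 7.20 and 7.64 FPKM in siFSCN1. Its fitted value of 0.17 (adjusted p = 0.0145) was small, its scaled counts overlapped between groups, and it did not pass without NC replicate 1 (0.15, adjusted p = 0.0538), nor without NC replicate 3, siFSCN1 replicate 2 or siFSCN1 replicate 3. DSC2 gave 0.48 (adjusted p = 0.00178) and DSC3 0.25 (adjusted p = 0.0875), both under 1 FPKM. DSC3 did pass with library totals (0.44, adjusted p = 0.00506) and with upper quartile scaling (0.37, adjusted p = 0.0147). The 7 desmosomal cadherin genes lie side by side on chromosome 18 (chr18:30989365-31549008), and the 3 tested ones, DSC3, DSC2 and DSG2, occupy its ends, whereas DSC1, DSG1, DSG3 and DSG4 between them held at most 9 counts in any library.

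The desmosome genes summed to 54.5 ± 1.82 FPKM (SD, n = 3) in NC and 88.2 ± 2.30 FPKM in siFSCN1. JUP made up 43.1% ± 1.81 and 59.9% ± 1.15 of these sums, and PKP3 26.8% ± 1.02 and 13.4% ± 0.60.

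**Figure D3:**
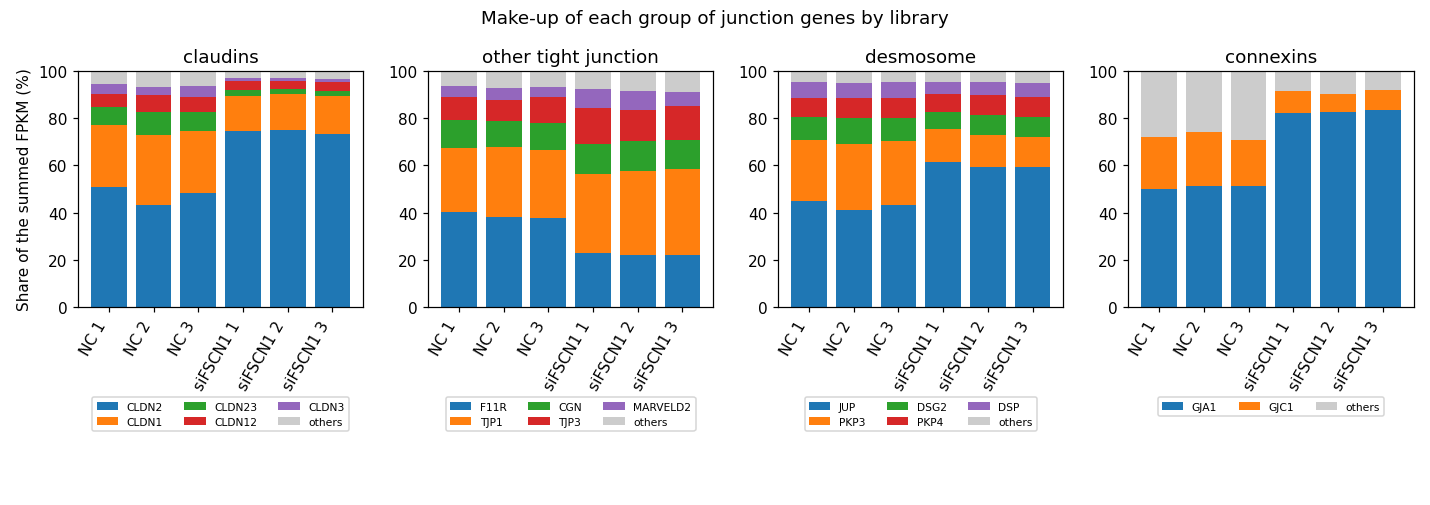
Share of the summed FPKM (vertical axis, percent) taken by up to 5 members at 1 FPKM or more of each of the 4 groups of junction genes, with the others in grey, in each library. The share of CLDN2, of JUP and of GJA1 was larger in each siFSCN1 library than in any NC library, and that of F11R smaller.

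Of the 4 groups the connexins had the most calls, with 5 of 7 tested genes called (2 higher, 3 lower). The share called over all tested genes was 16.5%. Of the connexin calls, 1 higher and 3 lower were of genes under 1 FPKM. At 1 FPKM or more, 1 connexin was called, as in each of the other groups. GJA1, which encodes Cx43, the most widely expressed connexin, was the most abundant. GJA1 (ENSG00000152661.9, chr6:121435595-121449727) stood at 4.40, 4.63 and 4.78 FPKM in NC and at 12.5, 13.7 and 13.5 FPKM in siFSCN1. All siFSCN1 libraries were above all NC libraries, and the log2 fold change was 1.36 (SE 0.058, adjusted p = 5.61e-13), a 2.56-fold rise. A processed copy, GJA1P1, is annotated, and reads that match both would have been lost to the filter on unique mapping. GJC1, encoding Cx45, moved the opposite way, from 1.93, 2.08 and 1.82 FPKM to 1.41, 1.21 and 1.37 FPKM, a log2 fold change of -0.71 (SE 0.079, adjusted p = 2.68e-07).

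The beta connexins GJB2 and GJB1 lay under 1 FPKM and rest on at most 84 counts a library. GJB2, encoding Cx26, whose promoter window is printed above, gave 69, 65 and 84 counts against 35, 30 and 41, a log2 fold change of -1.22 (SE 0.20, adjusted p = 2.81e-05) that was -1.24 without NC replicate 1. GJB1, encoding Cx32, went the other way, with 34, 19 and 45 counts against 82, 84 and 61 and a log2 fold change of 1.04 (SE 0.23, adjusted p = 0.000707). Its value dropped under 2-fold without NC replicate 2 (0.83), siFSCN1 replicate 1 (0.98) or siFSCN1 replicate 2 (0.94). GJA3, encoding Cx46, gave 16, 12 and 26 counts against 3, 5 and 6, a log2 fold change of -2.08 (SE 0.45, adjusted p = 0.00049). GJB2, GJB1 and GJA3 did not overlap between groups. GJC3 gave 0.29 (adjusted p = 0.612) on 5 to 19 counts per library.

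GJA3 and GJB2, which fell, lie with GJB6 within 94.1 kb (chr13:20138255-20232365). GJB5, which lies elsewhere, on chromosome 1, held 14, 2 and 9 counts in NC and 0, 1 and 1 in siFSCN1. GJB5 was under the filter on low counts and was called lower in a fit with no filter, both with all libraries (adjusted p = 0.000735) and without NC replicate 1 (adjusted p = 0.0454). GJB6 held 10, 2 and 1 counts against 0, 8 and 0, with no such separation. GJB5 was singled out after its values were seen.

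The connexin FPKM summed to 9.06 ± 0.27 (SD, n = 3) in NC and 15.99 ± 0.72 in siFSCN1. GJA1 supplied 50.8% ± 0.68 of the sum in NC and 82.7% ± 0.70 in siFSCN1, while GJC1 went from 21.5% ± 1.79 to 8.34% ± 1.00 and GJB2 from 8.64% to 2.34%.

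**Figure D4:**
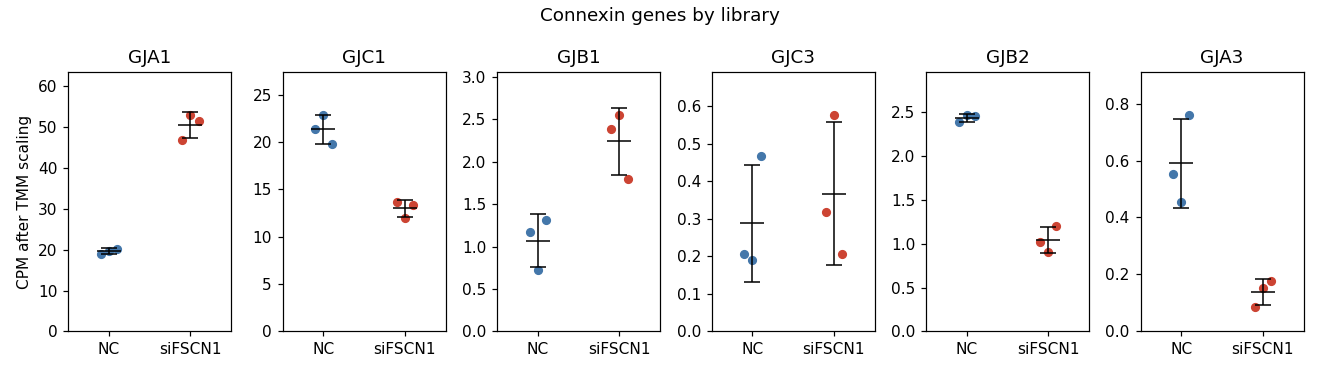
CPM (counts scaled to library size) after TMM scaling (vertical axis, from 0, a separate scale for each gene) of 6 tested connexin genes in each library, with the mean and SD of 3 libraries per group. GJA1 and GJB1 were higher in siFSCN1, GJC1, GJB2 and GJA3 lower, and the points of GJC3 were mixed.

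Apart from the genes already described, the 23 members that were not tested held few or no counts. Besides GJB5, the members that a fit with no filter called included DSG1, which was lower, and CLDN5, CLDN11 and CLDN22, which were higher. DSG1 held 9, 1 and 1 counts in NC and 0, 1 and 0 in siFSCN1, so its difference rested on NC replicate 1, without which it was not called (adjusted p = 0.62). CLDN5 was not called without that library either (adjusted p = 0.0698). CLDN11 held 4, 0 and 1 counts against 9, 11 and 6, CLDN5 held none in NC and 3, 6 and 1 in siFSCN1, and CLDN22 held 7, 8 and 6 against 8, 26 and 20. CLDN22 lies entirely within an exon of WWC2 on the opposite strand. CLDN18, a claudin of lung alveoli and stomach, held 6 counts in all.

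**Figure D5:**
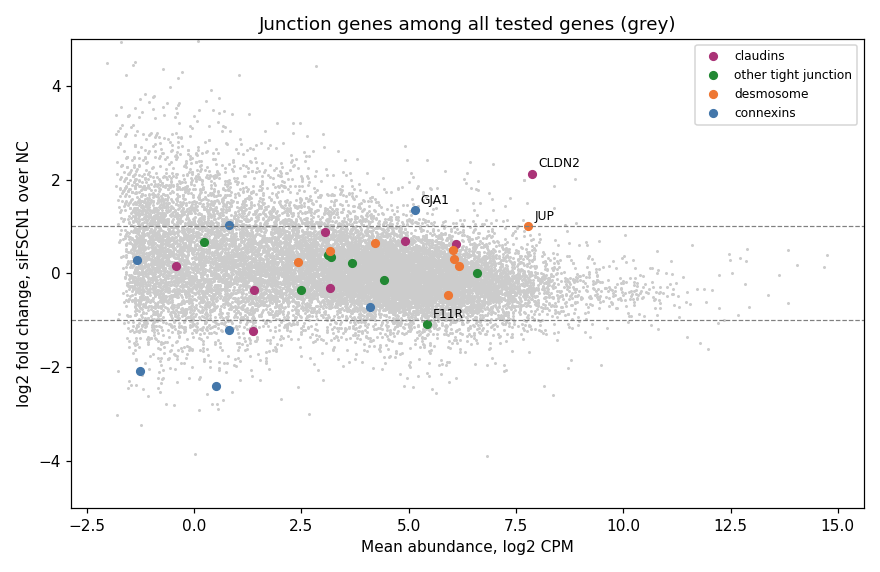
Log2 fold change (siFSCN1 over NC, vertical axis) against mean abundance (log2 CPM, horizontal axis) of all tested genes (grey) and of the 31 tested junction genes (coloured by group), with the 4 called members at 1 FPKM or more named and 6 grey genes beyond the vertical range. CLDN2 and JUP lie among the abundant genes, and the called connexins other than GJA1 among the rare ones, where grey points spread most.

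A stricter question is whether a change exceeded 2-fold beyond its error. In edgeR's test against a 2-fold threshold, 3 of the 9 called members passed, among them CLDN2 and GJA1, and 6 did not, with GJA3 closest at an adjusted p of 0.0522. The share of all tested genes that passed this test is not given here, so the count cannot be set against the whole table.

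The genes that surround these junctions were read from lists outside the symbol rule. For each list the comparison is all tested genes, of which 35.1% passed as higher and 33.2% as lower. Called higher were 11.7% of all tested genes and called lower 4.85%. Of the adherens junction list, 12 of 15 genes were tested, 4 passed as higher and 4 as lower, and 1 was called. That gene was CDH1, encoding E-cadherin, which went from 9.41, 9.02 and 9.25 FPKM to 26.5, 25.9 and 26.7 FPKM (log2 fold change 1.35, adjusted p = 8.03e-15). The study had selected CDH1 on these samples, so its direction is not independent evidence. The list's median was 0.0003. Also higher were CDH2, which encodes N-cadherin (0.57, adjusted p = 3.85e-07), AFDN (0.99, adjusted p = 1.92e-11) and PLEKHA7 (0.19, adjusted p = 0.03). CTNNB1, encoding beta-catenin, the armadillo relative of plakoglobin, fell by 0.31 (adjusted p = 3.45e-06), in contrast to JUP. The other genes of the list that passed as lower were NECTIN1 (-0.38, adjusted p = 0.000195), NECTIN2 (-0.46, adjusted p = 5.49e-08) and NECTIN3 (-0.24, adjusted p = 0.00767). NECTIN2 went from a mean of 20.4 FPKM in NC to 16.7 FPKM in siFSCN1.

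Of the tight junction associates, 25 of 29 were tested, 9 passed as higher and 11 as lower, with a median of -0.06. The single call was MAGI2, a scaffold gene at under 0.1 FPKM (1.37, adjusted p = 8.75e-05), named after its value was seen. Of the desmosome associates, 9 of 10 were tested, 3 passed as higher and 6 as lower, with a median of -0.50. The 3 higher were PERP (0.91, adjusted p = 7.96e-13), PPL (0.67, adjusted p = 1.63e-07) and EVPL (0.36, adjusted p = 1.19e-05). PERP went from a mean of 54.6 FPKM in NC to 114.7 FPKM in siFSCN1. The keratin genes KRT7 and KRT19, which encode intermediate filament proteins of simple epithelia, were called lower. KRT7 went from 497.0, 510.0 and 495.4 FPKM to 260.9, 246.1 and 232.8 FPKM (-1.19, adjusted p = 4.69e-14) and KRT19 from a mean of 14.9 ± 0.82 FPKM (SD, n = 3) to 7.78 ± 1.17 FPKM (-1.10, edgeR adjusted p = 3.64e-10). The 5 filament genes of this list, KRT7, KRT8, KRT18, KRT19 and VIM, passed as lower, as did PKP3 of the desmosome plaque, while JUP, DSP, PKP2 and PKP4 passed as higher. The study had named keratins on these samples as well, so the direction of this list is not independent evidence.

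Of a list of other channel genes (connexins and pannexins outside the rule, and CNST, which encodes the connexin-binding protein consortin), 4 of 8 were tested, 3 passed as higher and none as lower, with a median of 0.74. PANX2, encoding a pannexin channel, went from 3.09, 3.68 and 3.58 FPKM to 8.64, 7.96 and 8.21 FPKM (1.10, SE 0.067, adjusted p = 6.83e-11). GJD3, a further connexin gene, gave 1.43 (adjusted p = 2.37e-07) at under 1 FPKM and was named after its value was seen. Of the transcription regulators of junction genes, 15 of 18 were tested, 4 passed as higher and 4 as lower, with a median of -0.04. HNF4A, a factor of epithelial differentiation, went from 2.10, 1.85 and 2.18 FPKM to 5.29, 4.68 and 4.69 FPKM (1.09, SE 0.062, adjusted p = 2.9e-11). TP63, a regulator of stratified epithelia, held 12, 6 and 17 counts in NC and 80, 73 and 61 in siFSCN1 (2.43, adjusted p = 4.05e-07) and was named after its value was seen. The repressors SNAI1 (-0.13, adjusted p = 0.526), ZEB2 (-0.04, adjusted p = 0.856) and TWIST1 (-0.26, adjusted p = 0.152) did not pass, while TWIST2, the most abundant of these repressors, passed as lower (-0.38, adjusted p = 0.00485) and ZEB1 as higher (0.49, adjusted p = 0.00108).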

How the data were processed

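RNA was sequenced from 3 NC and 3 siFSCN1 samples of A549 cells, with groups and replicate numbers taken from the sample titles. The authors deposited raw counts per gene for 30230 genes and FPKM for 29899 genes. Per the study's methods the authors used the FASTX Toolkit for trimming and HISAT2 for alignment to GRCh38, and only unique alignments were counted. The submitters' processing notes name bcl2fastq and TopHat2. The annotation release, the program that counted reads and its handling of strand are not given in the sources used here. Library totals were 27967301 to 36560919 counts.

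Genes were filtered with filterByExpr, which left 17076, scaled by TMM and tested by quasi-likelihood in edgeR 4.0.16 under R 4.3.3, with Benjamini-Hochberg adjustment over all tested genes. A gene passed at an adjusted p under 0.05 and was called at a change of at least 2-fold as well. Standard errors came from the fitted change and its F statistic, and intervals span 1.96 standard errors on each side. The authors used DESeq2, which was run here as an alternative (DESeq2 1.42.0), as was limma 3.58.1 on log2(FPKM + 0.1) and log2(FPKM + 1). FPKM were summed per group of genes without a test. The script was tested on simulated data. Positions and overlaps came from GENCODE release 44, in which all 54 members were found.

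Named genes were the tested members at a mean of at least 1 FPKM in the higher group and, below that, the called members, with other members given more briefly. Some members are counted but not reported by name here. The members and lists were chosen with earlier results of these data known. The study calls its replicates biological, but the labels do not say how the cultures were separated, so p-values measure the spread between these libraries, which may be partly technical. No pair of libraries agreed within sampling noise. Exact permutation of 3 against 3 libraries cannot give a p under 0.1 and was not used. Counting intervals were not given, and the depth limits statements on genes with few counts.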

Additional observations from a re-analysis of the deposited data

How the results depend on the processing

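The 24 named members were refitted under each alternative, which gave 407 comparisons. Of these, 364 kept their direction and their side of the call, 30 kept the direction but were no longer called, 3 became called (CLDN15 with library totals, upper quartile scaling and FPKM + 0.1) and 10 changed sign, in TJP1 and CGN, neither of which was called. TJP1 was at -0.012 with RLE scaling, -0.0119 with DESeq2 and -0.0033 with no filter, and spanned -0.0265 to 0.0151 with single libraries left out. CGN was at 0.0432 with library totals, 0.0229 with FPKM + 0.1 and 0.0172 with FPKM + 1.

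Of all members, 9 were called, and 7 to 10 with single libraries left out (7 without NC replicate 2, when JUP and GJB1 were lost). With no filter 14 were called (6 higher, 8 lower). The count was also 14 (7 higher, 7 lower) when NC replicate 1 was left out as well, an alternative added after seeing the data. With FPKM + 0.1 it was 5, with FPKM + 1 and with the test against a 2-fold threshold 3, and among genes at 1 FPKM or more 4. Apart from genes at 1 FPKM or more, the share of all genes called under each alternative is not given here. Counts under those alternatives therefore cannot be set against the whole table. Called claudins numbered 2, but 5 with no filter and 1 with FPKM + 1, the 2-fold threshold test or genes at 1 FPKM or more. Called connexins numbered 5, but 2 with FPKM + 0.1 or the threshold test and 1 with FPKM + 1 or at 1 FPKM or more. The called desmosome gene JUP was lost (0 called) with RLE scaling, DESeq2 and the threshold test and was also lost with no filter (0.99), where DSG1 was called instead, and single libraries left out gave 0 to 1. F11R was lost (0 called) with upper quartile scaling, library totals, both FPKM fits, the threshold test and removal of the trend with abundance. Called adherens junction genes numbered 2 under either of these scalings (upper quartile, library totals) and 1 to 3 with single libraries left out, and called tight junction associates 2 and 1 to 2. Called desmosome associates, 2 lower in the main fit, became 1 higher and 1 lower under either of these scalings. The ratios of summed FPKM, 3.14 for claudins, 1.77 for connexins, 1.62 for desmosome genes and 0.917 for the other tight junction genes, became 2.79, 1.57, 1.44 and 0.817 as CPM per kilobase after TMM. For the members under 1 FPKM that lost calls on the FPKM scale, the added constant shrinks changes of genes near or under it.

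Replicate numbers did not pair the libraries, since deviations of same-numbered libraries correlated at -0.035, 0.04 and -0.084. With a replicate block 9 members were called, as without it. Low counts, as for GJA3, limit how closely a fold can be given.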

Other observations

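Some of the members with almost no counts were highest in NC replicate 1, and were chosen after their values were seen. PKP1 held 17 counts there against 1 and 3 in the other NC libraries, DSG3 6 against 0 and 0, DSG1 9 against 1 and 1, and GJB6 10 against 2 and 1. Others were not, since DSG4 held 0 counts there against 3 and 4, and DSC1 held 0 in every NC library and 3 in siFSCN1 replicate 2. GJB6, although highest in NC replicate 1, also held 8 in siFSCN1 replicate 2. The keratinocyte genes KRT5 (168 against 42 and 58), KRT14 (165 against 67 and 42) and IVL (11 against 1 and 0) were also highest in this library. In siFSCN1, KRT5 held 22 to 36 counts and KRT14 24 to 42, while TP63 held 61 to 80 against 6 to 17 in NC. The 6 keratinocyte markers, of which KRT10 held most, summed to 40.2 to 45.9 FPKM in NC and 34.9 to 40.2 FPKM in siFSCN1. The source of these counts was not tested.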
